A study of Rattus norvegicus with 6 samples.

Results

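Zinc finger genes whose name is Zfp or Znf followed by a number were followed through a pair of RNA pull-downs from GH4C1, a permanent line of rat pituitary tumour cells that make growth hormone and prolactin. Of 32883 genes in the count table, 263 carried such a name. The 208 with 10 or more counts in at least 3 of the 6 libraries were taken as members, 203 named Zfp and 5 named Znf, so the members were chosen by name and by their counts in these libraries. Each of 2 oligonucleotide pools, called pool A and pool B here, was used for 3 libraries. All of them came from wild type GH4C1 cells treated with psoralen, which crosslinks base-paired nucleic acid strands, and the groups share every other label. The study asked which RNAs are in direct contact with the long noncoding RNA Neat1. Neither the sequences in each pool nor the role of a pool as a control is stated in the labels. Input RNA and cells without psoralen were not analysed here. The labels do not say whether the libraries of a pool came from separate cultures, so p-values measure only the spread between these libraries, which may be technical.

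Most proteins named Zfp or Znf carry tandem C2H2 fingers, short folds that hold a zinc ion between a pair of cysteines and a pair of histidines and that contact DNA. Many also carry a KRAB domain, which recruits Trim28 and, through it, the histone methyltransferase Setdb1, and this machinery silences transposable elements and guards imprinted genes. Genes of this kind arose by repeated tandem duplication and often sit in clusters on the chromosome. A few names of the series belong to other folds, such as Zfp36, a CCCH finger protein that binds AU-rich elements of messenger RNA.

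Total counts per library lay between 1826390 and 3685899. Levels are given as CPM, each count scaled to 1e+06 counts of its library, and a count of 3, the most that a count of 0 allows, equals 0.814 to 1.64 CPM. CPM values carry no correction for transcript length, so levels were compared between libraries for the same genes and not between genes. A log2 fold change above 0 means higher with pool A and one below 0 higher with pool B. It comes from edgeR's quasi-likelihood test with TMM scaling over 11582 genes, and its p-value was adjusted (Benjamini-Hochberg) over them, with a threshold of 0.05. Past the threshold, 22.0% of these genes favoured pool B and 18.6% favoured pool A. The lineage markers Gh1, Prl and Pou1f1 were found in every library, Gh1 at 149 to 187 CPM and Pou1f1 at 139 to 227 CPM, while Ghrhr and Drd2 were at 0. The summed level of the 9 lineage markers was 5856 to 6863 CPM with pool A and 29392 to 36534 CPM with pool B, most of it Chgb in both pools. Among markers of other cell types, Tshb, Fshb and Col3a1 were at 0 and no other list exceeded 23.0 CPM, except for the gonadotroph list through Lhb, which alone had a median library of 10.6 CPM with pool A and 40.9 CPM with pool B. Chgb and Lhb thus ran the same way as the members described next, and their part in it was not tested. Other markers of the lineage ran the opposite way, with Prl at 680 to 759 CPM with pool A and 386 to 498 CPM with pool B, Chga at 1269 to 1512 and 951 to 1068 CPM, and Pitx1 at 57.8 to 79.7 and 26.9 to 41.6 CPM.

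The promoter stretches of 2 gene clusters are shown first, because one holds the member with the largest difference and the other holds neighbours that differed in opposite directions. Each is the 250 bases before the annotated start, from RefSeq on GRCr8, written from 5′ to 3′ on the gene's own strand, with the letters CCAAT (or ATTGG, the same on the other strand) in capitals. Where RefSeq lists several starts, the first is used. In the first cluster Zfp866 (chr16:19702052-19702301, plus strand), Zfp869 (chr16:19723693-19723942, plus strand) and Zfp964 (chr16:19770060-19770309, minus strand) were all higher with pool B.
Zfp866: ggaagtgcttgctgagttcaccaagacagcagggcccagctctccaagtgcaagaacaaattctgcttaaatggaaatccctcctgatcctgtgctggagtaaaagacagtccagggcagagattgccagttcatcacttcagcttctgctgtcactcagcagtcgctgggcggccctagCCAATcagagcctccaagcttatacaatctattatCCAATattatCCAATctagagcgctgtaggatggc
Zfp869: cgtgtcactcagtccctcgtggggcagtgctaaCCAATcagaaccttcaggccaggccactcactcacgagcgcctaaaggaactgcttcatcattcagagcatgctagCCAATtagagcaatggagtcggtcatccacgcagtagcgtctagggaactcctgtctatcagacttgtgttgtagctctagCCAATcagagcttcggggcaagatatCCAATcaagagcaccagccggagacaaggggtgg
Zfp964: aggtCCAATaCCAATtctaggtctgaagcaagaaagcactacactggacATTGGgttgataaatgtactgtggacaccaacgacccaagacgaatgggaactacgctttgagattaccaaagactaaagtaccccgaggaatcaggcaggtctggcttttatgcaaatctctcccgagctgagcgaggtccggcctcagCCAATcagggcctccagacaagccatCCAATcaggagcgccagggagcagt
These stretches hold 3, 4 and 5 matches to CCAAT on either strand. Zfp868, the other member of this cluster, did not pass the threshold, and its stretch is not shown. In the second cluster Zfp112 (chr1:88804583-88804832, plus strand) was higher with pool B and Zfp61 (chr1:88985660-88985909, minus strand) was higher with pool A.
Zfp112: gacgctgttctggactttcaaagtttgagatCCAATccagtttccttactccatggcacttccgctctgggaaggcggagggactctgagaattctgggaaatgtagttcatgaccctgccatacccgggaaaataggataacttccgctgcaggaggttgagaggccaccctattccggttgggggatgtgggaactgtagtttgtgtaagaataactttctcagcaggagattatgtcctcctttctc
Zfp61: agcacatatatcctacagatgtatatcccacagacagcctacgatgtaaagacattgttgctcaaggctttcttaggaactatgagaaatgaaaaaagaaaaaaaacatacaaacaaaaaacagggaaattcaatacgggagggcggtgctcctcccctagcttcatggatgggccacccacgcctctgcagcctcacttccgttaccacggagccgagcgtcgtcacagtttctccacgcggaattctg
Zfp112 has 1 match and Zfp61 has 0. The stretches of Zfp180 and Zfp111, the other members of this cluster, are not shown. CCAAT, on either strand, occurs in the same stretch of 34.3% of 27457 RefSeq genes and of 37.7% of the 162 members with an entry. Members that favoured pool B held it in 31 of 77 cases, those that favoured pool A in 4 of 14 and those not past the threshold in 26 of 70. A match is a run of letters and was not tested as a binding site. The letters GGGCGG, a GC box, occur on either strand in 49.4% of the members and in 32.4% of all genes, and TATAAA occurs in 7.41% and 13.1%. GGGCGG was held by 35 of 77 members that favoured pool B, 9 of 14 that favoured pool A and 36 of 70 not past the threshold. No difference between these groups in any motif was tested. None of these motifs contains another, though neighbouring matches can share end bases. The members had a median of 14 CG pairs in these 250 bases, against 6 for all genes. That median was 14 for members higher with pool B, 15.5 for those higher with pool A and 14.5 for those not past the threshold.

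As a whole the members were recovered more with pool B. Their CPM summed to 6971, 6721 and 7480 with pool A and to 17365, 18688 and 18644 with pool B, a ratio of 2.58 with no overlap between the pools. The median member was at 14.2, 13.6 and 14.7 CPM in the pool A libraries and at 34.9, 37.0 and 37.1 CPM in the pool B libraries. Over all tested genes the same median moved little between the pools, from 21.8 to 24.5 CPM with pool A to 25.2 to 26.3 CPM with pool B.

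**Figure D1:**
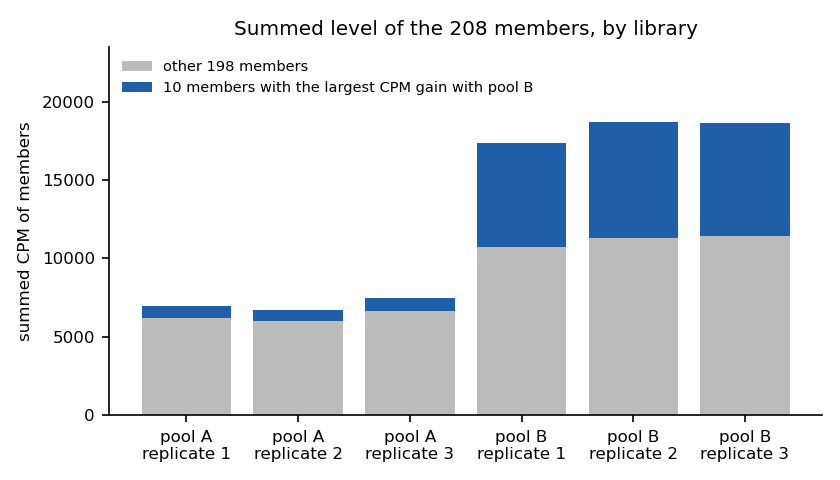
Bars give the summed CPM of the 208 members in each of the 6 libraries, with the 10 members of largest CPM gain with pool B in blue and the other members in grey. The 3 pool A libraries sit between 6721 and 7480 CPM and the 3 pool B libraries between 17365 and 18688 CPM, and the blue part is at most 821 CPM with pool A and at least 6617 CPM with pool B.

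Of the 207 members tested, 104 were higher with pool B past the threshold, 21 were higher with pool A and 82 did not pass, where the shares over all tested genes were 22.0% and 18.6%. The share of members higher with pool B was 50.2% and that higher with pool A was 10.1%. Over 4-fold, 53 members were higher with pool B and 4 with pool A, against 4.39% and 3.43% of all tested genes. Over 16-fold, 22 members were higher with pool B, against 0.492% of all tested genes. Many of these large folds rest on few counts in pool A. Among the 153 members with 10 or more counts in every library, 27 were over 4-fold higher with pool B and 3 with pool A. Over 16-fold higher with pool B were 9 of these 153. The median log2 fold change of the members was -0.68, with quartiles of -2.03 and 0.28, and that of all tested genes was 0.02, with quartiles of -0.63 and 0.58. CPM ranges were apart in favour of pool B for 117 members and in favour of pool A for 22, against 30.2% and 18.9% of all tested genes. The family was singled out on these same libraries, so these counts describe it and are not independent evidence of its direction.

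Membership itself used the counts of both pools. Of the members, 153 reached 10 counts in every library. There were 8 that reached it in all pool B libraries and in 0 pool A libraries. These entered through pool B alone, so their direction was largely fixed by the rule, and 7 of them were called higher with pool B. The reverse held for 3 members, Zfp579, Zfp566 and Zfp385b, of which 2 were called higher with pool A. Just inside the limit, with 10 counts in exactly 3 libraries, stood 17 members, such as Zfp708 with pool A counts of 3, 2 and 3 and pool B counts of 63, 37 and 71, or Zfp622 with 9, 10 and 14 against 4, 14 and 6. Just outside, with 2 such libraries, stood 5 genes, among them Zfp136 with counts of 0, 0 and 0 against 18, 12 and 4 and Zfp688 with 22, 5 and 26 against 6, 5 and 7. The other rows with such a name include 19 without any count. Zfp831 was a member but failed edgeR's expression filter. Zfp36l1, Zfp36l2 and Zfp36l3, the other CCCH genes with such a name, had at most 5, 7 and 0 counts in any library and were no members.

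The member with the largest difference was Zfp869 (ENSRNOG00000033351), at 13.8, 13.4 and 22.6 CPM with pool A and 955, 1047 and 1003 CPM with pool B. The pool B values stood together and far above those of pool A, at a log2 fold change of -5.77 ± 0.18 (SE), and the adjusted p from edgeR was 6.28e-19. Zfp113 had 6.24, 3.95 and 8.16 CPM with pool A and 306, 342 and 345 CPM with pool B, for a log2 fold change of -5.58 ± 0.20 (SE). Zfp62 had 26.9, 27.3 and 37.3 CPM with pool A and 1113, 1195 and 1155 CPM with pool B, for a log2 fold change of -5.10 ± 0.16 (SE). Their choice required CPM ranges that do not overlap between the pools. In Zfp62, the narrowest gap of these 3, the lowest pool B library was 29.8-fold above the highest pool A library. Zfp763 was at 2.17, 2.37 and 1.88 CPM with pool A and at 83.8, 98.6 and 88.5 CPM with pool B, for a log2 fold change of -5.23 ± 0.29 (SE). Its pool A counts were 8, 6 and 6, so it was among the members that entered through pool B alone.

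The next members by size were Zfp819, Zfp35, Zfp707, Zfp260, Zfp112 and Zfp354a, with log2 fold changes from -5.02 to -4.61 and pool A means of 1.71 to 7.44 CPM. Zfp819 varied most, with pool A counts of 12, 0 and 6 and pool B counts of 111, 140 and 244, and its log2 fold change of -5.02 ± 0.44 (SE) was -5.86 without pool A replicate 1. Zfp260 had pool A counts of 11, 2 and 5 and pool B counts of 214, 80 and 115, a log2 fold change of -4.66 ± 0.39 (SE), which became -5.28 without pool A replicate 1. Zfp354a, known from kidney as Kid-1, held steady with pool B at 131, 134 and 130 CPM and had 5.70, 7.91 and 1.25 CPM with pool A. Pool A replicate 1 is the deepest library, and the pool A values of these genes rest on few counts.

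**Figure D2:**
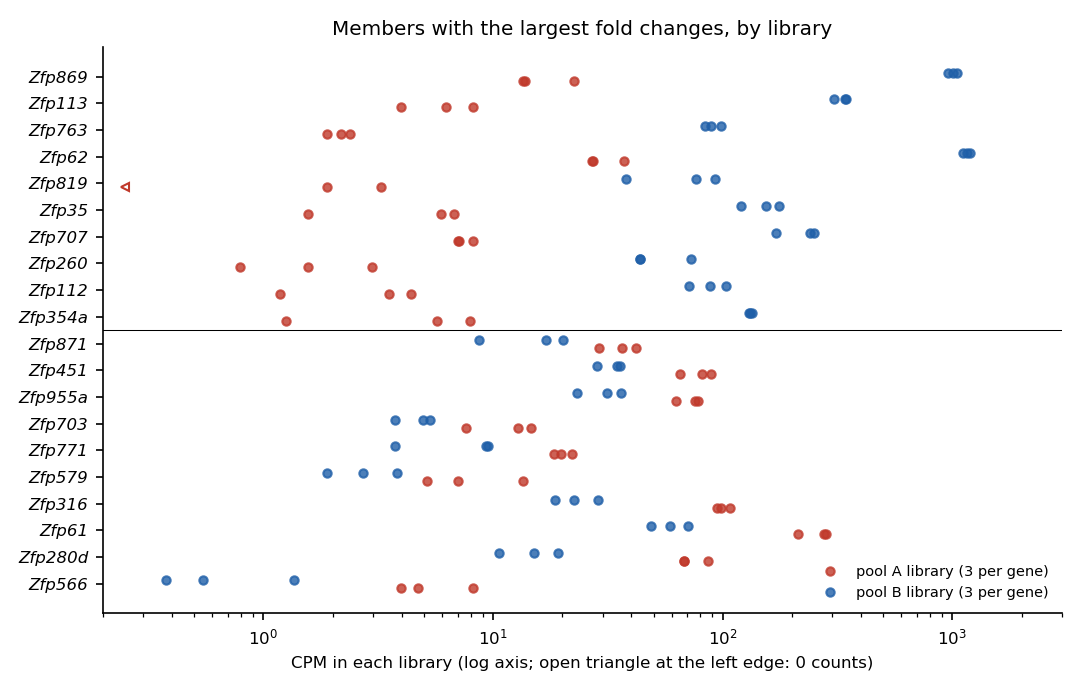
Points give the CPM of each library on a log axis for the 10 members with the largest fold change in favour of pool B (above the line) and of pool A (below it), pool A in red and pool B in blue, with an open triangle for 0 counts. The pools do not overlap in any row, as the choice of these members required, and the separation is wider above the line than below it.

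Members higher with pool A were fewer and their differences were smaller. Zfp61 (ENSRNOG00000019416) was at 277, 282 and 213 CPM with pool A and at 70.6, 48.7 and 59.0 CPM with pool B, for a log2 fold change of 2.26 ± 0.18 (SE), and the adjusted p from edgeR was 3.04e-11. Zfp280d had 68.1, 86.2 and 68.1 CPM with pool A and 15.0, 19.2 and 10.6 CPM with pool B, for a log2 fold change of 2.48 ± 0.25 (SE). Zfp316 had 108, 94.1 and 98.5 CPM against 28.6, 22.4 and 18.5 CPM, a log2 fold change of 2.25 ± 0.21 (SE). The pools stood apart, as the choice of these members required. The gap was narrowest in Zfp61, whose lowest pool A library was 3.02-fold above its highest pool B library. The largest fitted value was that of Zfp566, 2.90 ± 0.81 (SE), on pool A counts of 30, 10 and 15 and pool B counts of 4, 1 and 1. Leaving out pool B replicate 1 gave 3.66, and leaving out pool A replicate 1 gave 2.51 with the call lost (edgeR adjusted p = 0.0594).

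The remaining members named for their rise with pool A were Zfp579, Zfp771, Zfp703, Zfp955a, Zfp451 and Zfp871, with log2 fold changes from 1.38 to 1.75. Zfp451, a SUMO ligase, was at 80.8, 88.6 and 64.9 CPM with pool A and at 34.8, 28.5 and 35.6 CPM with pool B. As its choice required, the pools did not overlap. The calls of Zfp579 and Zfp703, a transcriptional corepressor, were lost when any of 3 libraries was left out, while the fold change kept its direction. Zfp579 had a log2 fold change of 1.75 (edgeR adjusted p = 0.0242), which was 1.34 (0.184), 1.74 (0.0537) and 1.53 (0.0876) without pool A replicate 3, pool B replicate 1 and pool B replicate 3. Zfp703 had 1.46 (edgeR adjusted p = 0.022), which was 1.26 (0.12), 1.45 (0.0548) and 1.32 (0.0633) without pool A replicate 2, pool A replicate 3 and pool B replicate 1.

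Most of the net difference in counts came from a few genes. The 10 members with the largest gain in CPM with pool B were Zfp646, Zfp62, Zfp869, Zfp266, Zfp105, Zfp251, Zfp354c, Zfp113, Zfp512b and Zfp609. Together they rose from 778 ± 39.7 CPM (SD, n = 3) with pool A to 7076 ± 403 CPM (SD, n = 3) with pool B and made up 56.4% of the net difference of the members. Since CPM are not per length, this says where the counts lay and not how many molecules each gene gave. The other 198 members also summed to more with pool B, 6280 ± 347 CPM (SD, n = 3) against 11156 ± 355 CPM (SD, n = 3). Zfp646 took the largest part, with 150, 151 and 181 CPM with pool A and 1160, 1514 and 1464 CPM with pool B, for a log2 fold change of -2.96 ± 0.14 (SE). Zfp266 and Zfp105 had log2 fold changes of -4.19 ± 0.15 and -4.03 ± 0.15 (SE), Zfp251 had -3.41 ± 0.16 (SE) and Zfp354c had -4.38 ± 0.20 (SE). Zfp512b and Zfp609, a partner of the cohesin loader Nipbl, rested more on their high counts than on their fold, with log2 fold changes of -1.004 ± 0.127 and -1.04 ± 0.13 (SE).

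Abundant members also stood among those that did not pass. Zfp335, a subunit of a histone methyltransferase complex, had 190, 158 and 211 CPM with pool A and 214, 203 and 197 CPM with pool B, and its log2 fold change was 0.007 ± 0.138 (SE). Its sign turned with total counts alone and when any of 4 libraries was left out. Zfp385a had 144, 105 and 146 CPM against 140, 168 and 156 CPM, with a log2 fold change of -0.09 ± 0.15 (SE), which turned to 0.014 with upper-quartile scaling and to 0.048 without pool A replicate 2. Zfp236 had 123, 114 and 138 CPM against 94.4, 87.6 and 130 CPM. Its log2 fold change was 0.40 ± 0.17 (SE), and the adjusted p from edgeR, 0.0538, fell to 0.0106 without pool B replicate 3 and passed under 5 other alternatives. The values of these 3 genes overlapped between the pools, as did those of Zfp36, at 2.71, 3.56 and 13.2 CPM with pool A and 11.2, 7.12 and 14.4 CPM with pool B. Zfp36 had an edgeR adjusted p of 0.37, and 0.0466 without pool A replicate 3, with a log2 fold change of -1.61 in place of -0.65.

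The members were then divided by their place in the table, whose rows mostly follow the order of genes along the chromosomes. For 99 members another Zfp or Znf row lay within 5 rows, and the other 109 were isolated. Of the members with a near neighbour, 63 of 99 (63.6%) were higher with pool B, 12 were higher with pool A and 24 did not pass. Of the 108 isolated members tested, 41 (38.0%) were higher with pool B, 9 were higher with pool A and 58 did not pass. Over all tested genes 22.0% favoured pool B and 18.6% pool A. The median log2 fold change was -1.52 with a near neighbour and -0.24 without one, and over 4-fold higher with pool B were 38 and 15 members, against 4.39% of all tested genes. The difference between these groups was not tested. For members with a near neighbour the median level was 9.89 to 13.8 CPM with pool A and 36.1 to 39.4 CPM with pool B. For isolated members it was 20.6 to 22.3 CPM with pool A and 34.8 to 35.6 CPM with pool B. The summed CPM rose by a ratio of 3.54 for members with a near neighbour and of 2.01 for isolated ones. Isolated members were still among the largest differences, with Zfp113, Zfp62, Zfp819 and Zfp354a among the first 10.

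**Figure D3:**
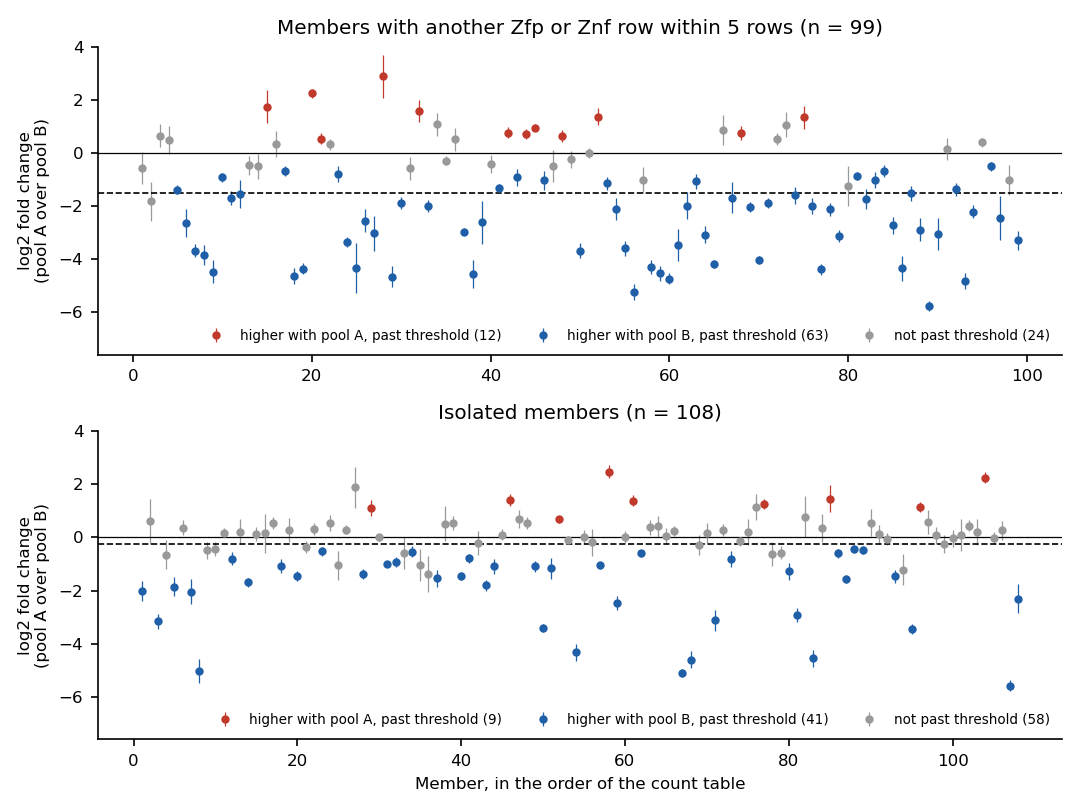
Points give the log2 fold change (pool A over pool B) of each tested member with its SE, in the order of the count table, for 99 members with another Zfp or Znf row within 5 rows (top) and 108 isolated members (bottom), coloured by the edgeR call, with the median as a dashed line. Values below 0 are higher with pool B, and the median is -1.52 in the top panel and -0.24 in the bottom panel.

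Where consecutive members lie at most 5 rows apart they form a run, and 13 runs had at least 3 members. The 10 described here were chosen for having the most members past the threshold in one direction, so their counts are a description. The other 3 runs, with 13 members, held 3 higher with pool B, 2 higher with pool A and 8 that did not pass. In the run of Zfp623, Zfp707l1 and Zfp707 all 3 members rose with pool B, by 19.5-fold, 23.1-fold and 26.6-fold. Zfp623 was at 7.87, 11.1 and 4.08 CPM with pool A and 168, 180 and 144 CPM with pool B, and its log2 fold change was -4.29 ± 0.25 (SE). Zfp707l1 had -4.53 ± 0.28 (SE) and Zfp707 had -4.73 ± 0.22 (SE). In the run of Zfp28, Zfp78, Zfp667, Zfp444 and Zfp787 all 5 members rose with pool B, but unevenly. Zfp28, Zfp78 and Zfp667 had log2 fold changes of -3.67 ± 0.26, -3.84 ± 0.39 and -4.47 ± 0.44 (SE). Zfp444 and Zfp787, at the end of the run, had -0.91 ± 0.18 and -1.68 ± 0.27 (SE). The run of Zfp397, Zfp35 and Zfp24 also moved as a whole, with -1.37 ± 0.25, -4.82 ± 0.30 and -2.21 ± 0.24 (SE). Zfp24 carries a SCAN domain in place of a KRAB domain and takes part in myelination.

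Other runs held members that did not pass beside members that rose. Zfp868 had 10.3, 9.10 and 11.9 CPM with pool A and 11.2, 8.21 and 11.3 CPM with pool B, 3 rows from Zfp869, and its log2 fold change was 0.15 ± 0.42 (SE). Zfp866 and Zfp964, the rows on either side of Zfp869, had -2.88 ± 0.44 and -3.05 ± 0.61 (SE), the latter -3.64 without pool A replicate 2. Pool A counts of Zfp964 were 7, 8 and 1, so it entered as a member through pool B alone. In the run from Zfp560 to Zfp846, Zfp266 led with 41.8, 38.4 and 38.9 CPM with pool A and 727, 867 and 815 CPM with pool B. Zfp426, Zfp560 and Zfp26 had log2 fold changes of -3.08, -1.98 and -1.07, and Zfp846 did not pass, at 0.86 ± 0.57 (SE). In the run of Zfp354c, Zfp879, Zfp2 and Znf354b the first 3 had -4.38, -2.12 and -3.13, and Znf354b, with pool A counts of 0, 12 and 15 and pool B counts of 15, 19 and 23, did not pass (edgeR adjusted p = 0.2, and 0.044 with limma-voom).

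Members of one run could also differ in opposite directions. Zfp61 and Zfp111 are consecutive rows. Zfp111 had 6.78, 11.1 and 10.98 CPM with pool A and 191, 203 and 250 CPM with pool B, for a log2 fold change of -4.36 ± 0.21 (SE), against 2.26 for Zfp61. The other members of that run were Zfp112, at -4.64 ± 0.31 (SE), and Zfp180, at -0.68 ± 0.19 (SE). In the run from Zfp84 to Zfp382, Zfp566 (2.90) lay between Zfp82 (ENSRNOG00000030932, -3.03) and Zfp260 (ENSRNOG00000020762, -4.66). The value of Zfp82 was -4.77 without pool A replicate 3. Zfp84 (ENSRNOG00000046652) and Zfp382 had -2.54 and -1.89. Outside this run, the other member rows named Zfp84 (ENSRNOG00000029043) and Zfp82 (ENSRNOG00000053115) had -3.34 ± 0.18 and -2.44 ± 0.82 (SE). In the run from Zfp871 to Zfp563, Zfp871 rose with pool A by 1.38 ± 0.31 (SE), while Zfp799, Zfp870, Zfp472 and Zfp763 rose with pool B, at log2 fold changes of -1.14, -2.10, -3.59 and -5.23. Zfp563 did not pass, at -1.01 ± 0.48 (SE), with an edgeR adjusted p of 0.0967, and of 0.037 when the test was limited to genes that reached 10 counts in all 6 libraries.

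The run from Zfp398 to Zfp467 was the most mixed and its differences were small. Zfp746, also known as PARIS, a repressor of Ppargc1a and a target of the ubiquitin ligase parkin, had 342, 320 and 312 CPM with pool A and 164, 215 and 177 CPM with pool B, for a log2 fold change of 0.96 ± 0.14 (SE). Zfp212 and Zfp777 were also higher with pool A, by 0.77 ± 0.21 and 0.72 ± 0.21 (SE), though the CPM ranges of Zfp777 overlapped. Zfp282, in the row before Zfp212, was higher with pool B, at -1.32 ± 0.17 (SE). Zfp956 (-0.91) and Zfp467 (-1.02) were called higher with pool B near the threshold (edgeR adjusted p of 0.0254 and 0.0205), with overlapping CPM ranges for Zfp956, and their calls were lost when any of 4 and of 3 libraries, respectively, was left out, with the highest edgeR adjusted p of 0.144 without pool B replicate 1 for Zfp956 and of 0.12 without pool A replicate 2 for Zfp467. Zfp398 had -0.41 ± 0.34 (SE) and did not pass.

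**Figure D4:**
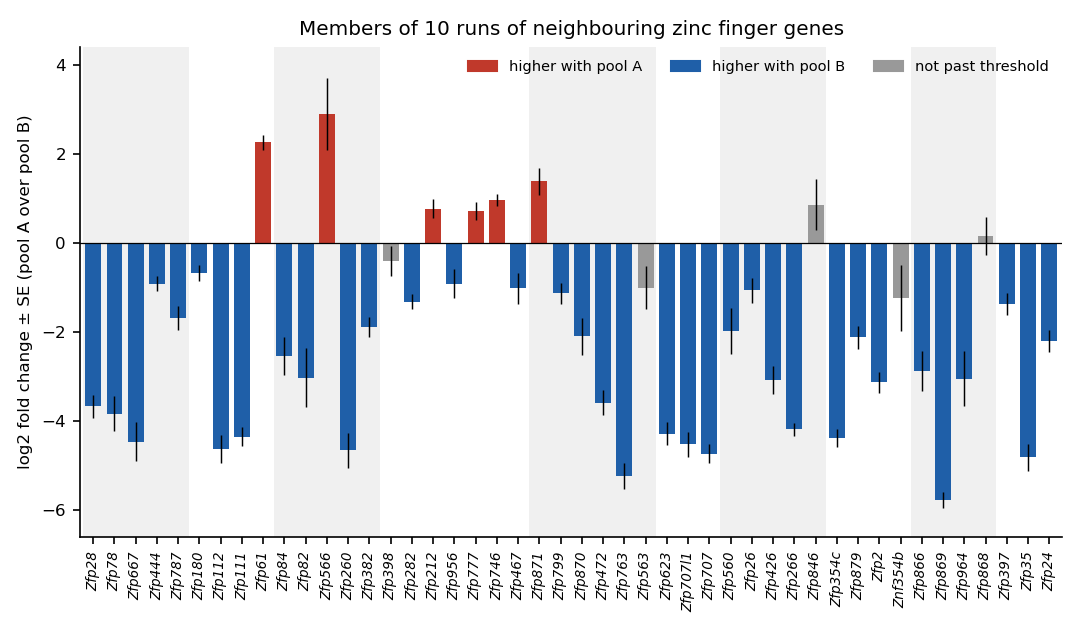
Bars give the log2 fold change (pool A over pool B) with its SE for the members of 10 runs of neighbouring zinc finger genes, in the order of the table, with shading that alternates between runs, and colours for the edgeR call. All 3 bars of Zfp623, Zfp707l1 and Zfp707 lie between -4.73 and -4.29, while Zfp61 (2.26) stands beside Zfp111 (-4.36).

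Over all runs there were 62 pairs of consecutive members. In 40 of them both members passed the threshold, in 28 both were higher with pool B, in 1 both were higher with pool A, and in 11 the directions were opposite. Over 10399 pairs of consecutive tested genes at the same distance these shares were 5.76%, 4.14% and 7.52%. Among members with a near neighbour 63.6% were themselves higher with pool B, and whether neighbours went together beyond that share was not tested. Close paralogs can share reads, and neither the treatment of reads that match several genes nor the strand setting of the counting is given in the sources used here. Values of neighbouring members are therefore uncertain where their sequences are alike. The names Zfp84, Zfp82 and Zfp260 stand on more than 1 row, which touches 5 members.

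Both genes known to guard imprinted regions through the KRAB pathway, Zfp57 and Zfp445, were members, and they were chosen for mention after their values were seen. Zfp445 had counts of 158, 74 and 86 with pool A and 453, 263 and 417 with pool B, for a log2 fold change of -2.04 ± 0.19 (SE). Zfp57 had counts of 56, 35 and 51 against 45, 35 and 66, a log2 fold change of -0.26 ± 0.33 (SE), and did not pass (edgeR adjusted p = 0.58). Of 22 listed genes of this silencing pathway 20 matched by name, on 21 rows, and 19 rows were tested. For pool A 5 were higher and for pool B 4, where the shares over all tested genes were 18.6% and 22.0%, and the median log2 fold change was 0.02. Trim28, the corepressor itself, had 142, 137 and 189 CPM with pool A and 150, 224 and 186 CPM with pool B, at a log2 fold change of -0.12 ± 0.16 (SE), and Setdb1 had -0.43 ± 0.19 (SE) and did not pass (edgeR adjusted p = 0.0776). Higher with pool B were the heterochromatin protein gene Cbx3 (-1.80 ± 0.18, SE), the DNA methyltransferase gene Dnmt1 (-1.64 ± 0.14, SE), its partner Uhrf1 (-1.14 ± 0.14, SE) and the remodeller gene Chd3 (-0.37 ± 0.13, SE). Higher with pool A were the deacetylase gene Hdac2 (1.80 ± 0.22, SE), the remodeller genes Chd4 (0.86 ± 0.13, SE) and Atrx (ENSRNOG00000056703, 0.91 ± 0.16, SE), Morc3 (0.97 ± 0.20, SE) and Cbx1 (0.85 ± 0.19, SE). Cbx1 and Cbx3, paralogs that encode forms of heterochromatin protein, thus differed in opposite directions. Cbx5, a further paralog on the list, had -0.06 ± 0.14 (SE) and did not pass (edgeR adjusted p = 0.758).

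Other families with C2H2 fingers were set beside the members. Of 83 tested genes named Zbtb, Zscan, Zkscan, Klf, Sp, Prdm, Gli, Ikzf or Sall, 30 (36.1%) were higher with pool B and 10 with pool A, with a median log2 fold change of -0.42, where the shares over all tested genes were 22.0% and 18.6%. Zscan and Zkscan genes, whose proteins join fingers to a SCAN domain, held 4 of 8 and 5 of 7 in favour of pool B, and 0 in favour of pool A. Zscan21, at -3.86 ± 0.18 (SE), was the largest of these. Of 38 Zbtb genes, which join fingers to a BTB domain, 13 were higher with pool B and 6 with pool A, with a median of -0.31. Families that bind zinc through other folds (Zc3h, Zdhhc, Zmym, Zfyve, Rnf and Trim) had 21 of 137 (15.3%) in favour of pool B and 32 in favour of pool A, with a median of 0.07. No difference between these families and the members was tested.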

How the data were processed

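The authors deposited whole-number counts per gene for 32883 rat genes with Ensembl identifiers, and, for each pool, a mean signal column that was found equal to the mean of its 3 counts and left aside. Libraries were strand-specific pairs of 150-base reads, per the labels' protocols. STAR and featureCounts are named in the submitters' processing notes, without versions, and the genome build, annotation, filters and handling of multiply matching reads are not given in the sources used here. Columns were matched to samples by title, and replicate numbers come from the titles.

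The comparison used edgeR 4.0.16 under R 4.3.3 (TMM, filterByExpr by pool, quasi-likelihood test with pool as the only term) on all 6 libraries, and checked on simulated counts. Each SE is the log2 fold change over the root of its F value. The members and lists were chosen with earlier results of these data known, and so were the naming rules. Members were named if among the 10 largest fold changes in favour of each pool (past the threshold, CPM ranges apart, mean of at least 10 counts), the 5 highest mean CPM, the 6 leading runs of 3 or more (10 with ties), the 3 highest CPM not past the threshold and not yet named, or the CCCH genes. The 10 members with the largest CPM gain were listed apart from these rules. Members mentioned outside the rules, among them Zfp105, Zfp251, Zfp609, Zfp57 and Zfp445, are not among the 63 named members. The rows' order was checked against RefSeq's gene order, in which 98.9% of consecutive matched rows shared a chromosome and 94.2% of these had the later start in the later row (GRCr8, not necessarily the files' build), and no run spanned 2 chromosomes. RefSeq's promoter table (GRCr8) gave sequences for 162 of 203 members with a unique name. The alternatives were other scalings, filters and tests (DESeq2 1.42.0, limma-voom in limma 3.58.1, edgeR against a 1.5-fold change), a replicate block, other definitions of members and neighbours, and leaving out each library. Same-numbered libraries of the pools deviated together with r of 0.0409, -0.0195 and 0.0200, and no pairing was assumed. Libraries of a pool differed by more than counting noise, with a chi-square per degree of freedom of 6.37 to 23.3.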

Additional observations from a re-analysis of the deposited data

How the results depend on the processing

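The counts of members past the threshold stayed within 1.5 times their main values under the alternatives run, with these exceptions. Against a 1.5-fold change, by construction a stricter test, 11 members were higher with pool A (5 of them with a near neighbour), and with upper-quartile scaling 14 isolated members were. Members higher with pool B numbered 76 to 106 in all, the fewest with only genes of at least 10 counts in every library, where fewer genes were tested. When a library was left out, members higher with pool A numbered 18 to 22 and higher with pool B 94 to 99, and the medians ranged from -0.745 to -0.667 for all members, from -1.51 to -1.30 with a near neighbour and from -0.372 to -0.146 for isolated members (-0.372 without pool B replicate 1, -0.146 without pool B replicate 3). With total counts alone the medians were -0.82, -1.67 and -0.382, while that of all tested genes was -0.13. With at least 10 counts in every library they were -0.48, -0.996 and -0.13. The median of all members was -0.795 with limma-voom, and that of isolated members was -0.13 with upper-quartile scaling. With neighbours within 2 rows the isolated median was -0.44, within 10 rows the near-neighbour median was -1.28, and with only members as neighbours the medians were -1.37 and -0.32. Only members with unique names gave -1.347 with a near neighbour. The cause of these moves was not tested. The pool A share of the members' calls was 16.8%, where that of all tested genes was 45.8%. Upper-quartile scaling raised both, to 23.3% for the members and 52.8% for all tested genes. Against a 1.5-fold change these shares were 11.7% and 43.2%. When every tested gene had to reach 10 counts in all 6 libraries, they were 22.4% and 46.8%. The replicate block gave 21 members for pool A and 104 for pool B, and only Zfp579 and Zfp956 (lost) and Zfp236 (gained) changed their call among the named members.

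Of 924 refits of 63 named members, 884 kept direction and side of the threshold, 24 lost a call, 9 gained one and 7 turned sign. The last were all of values near 0 that did not pass: Zfp335 at -0.13 with total counts alone and from -0.026 to 0.108 over the leave-one-out fits, below 0 in 4 of 6, and Zfp385a at 0.014 with upper-quartile scaling and from -0.166 to 0.048 over the leave-one-out fits, above 0 without pool A replicate 2. The restriction to proteins with C2H2 motifs was not run, since no protein sequences were used here. Zfp566, Zfp82, Zfp260, Zfp819 and Zfp964 had few counts in a pool, and their called fold changes moved by over 1.5 times when a library was left out. The part of depth in these moves was not tested.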

Other observations

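Rows beside the members that carry other names were counted as well. Of 532 tested genes with other symbols within 5 rows of a member, 108 (20.3%) were higher with pool B and 108 were higher with pool A, with a median log2 fold change of -0.02, against 22.0% and 18.6% of all tested genes. Of 87 tested rows with clone-based or LOC names at the same distance, 33 (37.9%) were higher with pool B and 6 with pool A, with a median of -0.81. Among the fewer such rows that lie inside a run of members, 5 of 14 with other symbols favoured pool B and 2 favoured pool A (median -0.50), and of those with clone-based or LOC names 7 of 15 favoured pool B and 1 favoured pool A (median -0.83). What these unnamed rows encode was not analysed here, and the difference between both kinds of row was not tested.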
